A study of Drosophila melanogaster with 2 samples.

Results

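The genes described here are the 10 *Drosophila* genes of the circadian clock and of PDF signalling that could be read by name from the deposited table of 17559 genes. They are *per*, *tim*, *Clk*, *cyc*, *vri*, *Pdp1*, *cwo*, *cry*, *Pdf* and *Pdfr*, and all 10 were found and passed the limit of 20 reads over both libraries. RNA was isolated from 1 pool of 10 whole flies heterozygous for the Taf1_1 mutant allele and from 1 pool of 10 whole w1118 control flies, and each pool gave 1 library. The mutant flies came from a cross of a balanced stock to w1118, and the background of that stock is not stated. The third chromosome of that stock also carries the recessive alleles red1 and e1. Neither the labels nor the study's methods give the sex, the age, the light schedule or the hour of collection of the flies. The question put to these genes was how the reads of morning-peaking and night-peaking clock genes compared between the mutant and the control library, as a sign of collection time.

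The fly clock is a transcriptional feedback loop. The proteins CLK and CYC bind E-box sequences and switch on *per* and *tim*, whose products enter the nucleus at night and inhibit CLK and CYC. In an interlocked loop VRI represses and PDP1 activates *Clk*, CWO represses the E-box targets, and CRY is a blue-light receptor that leads to the loss of TIM after light. In fly heads the RNAs of the CLK-CYC targets *per*, *tim*, *vri*, *Pdp1* and *cwo* are known to peak between dusk and the middle of the night, and those of *Clk* and *cry* around dawn. *cyc* RNA is held constant over the day. *Pdf* encodes the neuropeptide that ventral clock neurons release to keep the clock network in step, and *Pdfr* encodes its G protein-coupled receptor, which raises cAMP. Clock genes also cycle in the eye, the fat body, the Malpighian tubules and other tissues outside the brain, so whole flies mix many clocks.

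The libraries held 32364756 reads for the mutant and 16753242 for control. Levels are CPM, the reads of a gene relative to an effective library total. Totals were scaled by TMM, the trimmed mean of log ratios that edgeR computes, and the size ratio of mutant over control was 1.61. Genes were called where the ratio was at least 1.5-fold and its exact 95% interval of counting error did not include equality. With 1 library for each genotype there was no replicate check and no p-value, and each value compares these libraries only. *Taf1* (FBgn0010355, 3R) was at 58.0 CPM in the mutant library and 80.7 CPM in the control library. This is 71.9% of control (95% interval 66.8 to 77.4). Its log2 ratio of -0.48 was short of the fold limit, so *Taf1* was not called. Against genes of like length and expression it was at -0.20 (-0.30 to -0.09). With neuron markers at equality every log2 ratio is 0.52 higher, which takes *Taf1* to about equality. Photoreceptor markers summed to 8359 CPM in the mutant library and 8382 CPM in control, with 0 of 9 called. *ninaE* alone gave 4458 and 4396 CPM of these sums, and 6 of the 9 log2 ratios lay below 0 (median -0.13). Glial markers summed to 1360 CPM in the mutant library and 1308 CPM in control, with 2 of 6 called higher. Neuronal markers summed to 1144 CPM in the mutant library and 1627 CPM in control. Of 9 measured markers, 7 had a log2 ratio below 0 and 4 were called lower. The intervals of *Snap25* (0.24) and *VGlut* (0.25) lay above equality. Against genes of like length and expression, 1 of the 9 was called lower and their median was -0.30. *elav*, *Syx1A* and *VAChT* were listed at 0 in both libraries. Fat body markers summed to 1506 CPM in the mutant library and 910 CPM in control, with 4 of 8 called higher. *Rfabg* alone gave 1390 and 833 CPM of these sums. Malpighian tubule markers summed to 244 CPM in the mutant library and 232 CPM in control (2 of 5 called higher), and testis markers to 3674 and 3101 CPM (3 of 10 called higher). Of those 3, *Mst84Da* had 118 reads in the mutant library and 2 in control. Against genes of like length and expression, 1 of the 10 testis markers was called higher (median -0.03). The fat body and tubule counts were still 4 of 8 and 2 of 5 in that comparison. In whole flies, fewer cells of a type and less RNA per cell cannot be told apart.

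The 10 genes were split evenly around equality, with 5 log2 ratios above 0 and 5 below. *Pdfr* was the gene called higher in the mutant library, and 0 of the 10 were called lower. Over all 11606 measured genes, 12.8% were called higher, 6.16% were called lower and 19.0% were called in either direction, so 1 call in 10 genes was not above the background. On the log2 scale, the median ratio of the mutant over the control library was 0.01 for the 10 genes and 0.0064 for all measured genes. The genes took 0.106% of all mutant reads and 0.132% of all control reads before TMM scaling. With TMM they summed to 1275 CPM in the mutant library and 1315 CPM in control, a ratio of 0.97. Without the fold limit, the interval of 4 genes lay above equality and that of 4 lay below, against 31.9% and 30.4% of all measured genes, or 62.4% together.

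**Figure D1:**
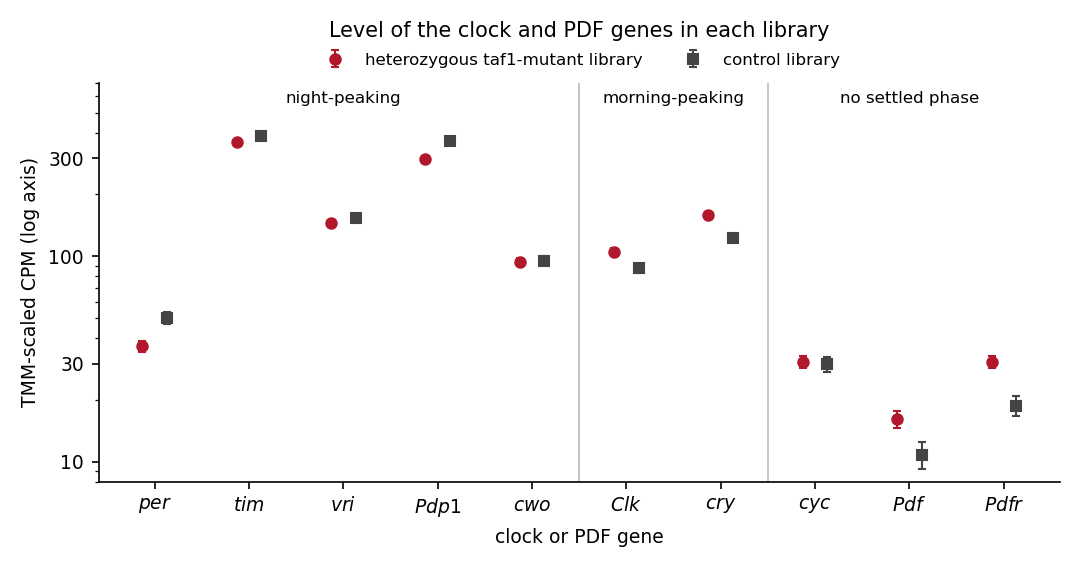
TMM-scaled CPM on a log axis of the 10 clock and PDF genes, with the mutant library (circles) to the left of the control library (squares) and bars for the exact 95% Poisson interval of counting error. Under this scaling the mutant symbol lies below the control symbol for *per*, *tim*, *vri* and *Pdp1* and above it for *Clk*, *cry*, *Pdf* and *Pdfr*, with 30.7 CPM against 18.8 CPM for *Pdfr*.

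The repressor genes of the main loop were read at very different levels. *per* (FBgn0003068, plus strand of X, 2685580 to 2692780 of BDGP6) had 986 reads, or 36.6 CPM (95% interval 34.3 to 38.9), in the mutant library and 844 reads, or 50.4 CPM (47.0 to 53.9), in the control library. It stood at 72.6% of control (66.2 to 79.7), a log2 ratio of -0.46, which was the lowest of the 10 genes but did not reach 1.5-fold. Of all measured genes, 11.6% had a lower ratio. *tim* (FBgn0014396, minus strand of 2L, 3493986 to 3508119) drew the most reads of the set, not corrected for length, with 9693 reads, or 360 CPM, in the mutant library and 6425 reads, or 384 CPM, in the control library. Its log2 ratio was -0.09 (95% interval -0.14 to -0.05), close to equality. PER and TIM act as partners in the cell, but the RNAs differed in their ratios. The reads of *per* over *tim* were 0.102 in the mutant library and 0.131 in the control library, so that the mutant ratio was 0.774 times that of control (95% interval 0.702 to 0.855). Exons of *per* share 49 nt with *CG2650* on the opposite strand, which had 266 reads in the mutant library and 47 in control. *tim* shares 151 nt of exon with snoRNA:Or-CD16 on the same strand and 545 nt with lncRNA:CR46495 on the opposite strand. *cry* shares 329 nt with lncRNA:CR46393 on the same strand and 9 nt with *vib* on the opposite strand, and the values of the non-coding genes were not used here. Reads from same-strand overlaps cannot be assigned to either gene. The library kit marks strand, but the labels and methods do not say how strand entered the counting.

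The genes of the interlocked loop that are switched on by CLK and CYC also lay at or slightly under control. *vri* (FBgn0016076, plus strand of 2L, 5288944 to 5311223), the repressor of *Clk*, had 3926 reads, or 146 CPM, in the mutant library and 2578 reads, or 154 CPM, in the control library. The log2 ratio was -0.08 (-0.15 to -0.01). *Pdp1* (FBgn0016694, minus strand of 3L, 7811458 to 7867369), the activator of *Clk*, had 8012 reads, or 297 CPM, in the mutant library and 6069 reads, or 362 CPM, in the control library. It stood at 82.1% of control (79.3 to 84.8), a log2 ratio of -0.29. *Pdp1* has 13 annotated transcripts from 2828 to 6855 nt, some of which act in muscle and fat body and not in the clock, and the table gives a value for the gene only. *cwo* (FBgn0259938, plus strand of 3R, 10388258 to 10400752), the repressor that sharpens E-box rhythms, had 2537 reads, or 94.1 CPM, in the mutant library and 1596 reads, or 95.3 CPM, in the control library. Its interval included equality (log2 ratio -0.02, -0.11 to 0.07).

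*Clk*, the activator gene whose RNA cycles, and the light receptor gene *cry* lay on the other side, and *cyc* was near equality. *Clk* (FBgn0023076, minus strand of 3L, 7763233 to 7775603) had 2845 reads, or 106 CPM (95% interval 102 to 109), in the mutant library and 1463 reads, or 87.3 CPM (82.9 to 91.9), in the control library. Its log2 ratio was 0.27 (0.18 to 0.37). *cry* (FBgn0025680, plus strand of 3R, 19212154 to 19215442) had 4290 reads, or 159 CPM (154 to 164), in the mutant library and 2064 reads, or 123 CPM (118 to 129), in the control library. This was 129% of control (123 to 136), a log2 ratio of 0.37. The 2 genes kept their own proportion, with 1.51 reads of *cry* for each read of *Clk* in the mutant library and 1.41 in the control library (ratio of ratios 1.07, 0.98 to 1.16). *cyc* (FBgn0023094, minus strand of 3L, 19813770 to 19815938), the constant partner of *Clk*, had 823 reads, or 30.5 CPM, in the mutant library and 499 reads, or 29.8 CPM, in the control library. Its log2 ratio was 0.04 (-0.13 to 0.20), and its level was about the same in both libraries under this scaling.

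The neuropeptide and its receptor had the highest ratios of the set. *Pdfr* (FBgn0260753, plus strand of X, 2552206 to 2578640) had 827 reads, or 30.7 CPM (28.6 to 32.8), in the mutant library and 315 reads, or 18.8 CPM (16.8 to 21.0), in the control library. It was 1.63-fold higher (95% interval 1.43 to 1.86, which includes the 1.5-fold limit), a log2 ratio of 0.71, and 10.8% of all measured genes had a higher one. With scaling by total reads *Pdfr* was at 0.44 and with the 3 qPCR reference genes of the study (*RpL32*, *eEF1alpha2* and *Act5C*) at equality it was at 0.38, and it was called with neither. *Pdf* (FBgn0023178, minus strand of 3R, 26455462 to 26456141) had 434 reads, or 16.1 CPM (14.6 to 17.7), in the mutant library and 181 reads, or 10.8 CPM (9.29 to 12.5), in the control library. Its ratio of 1.49 (1.25 to 1.78) fell just short of the 1.5-fold limit. The ligand and the receptor kept nearly the same proportion, with 0.525 reads of *Pdf* for each read of *Pdfr* in the mutant library and 0.575 in the control library (ratio of ratios 0.913, 0.732 to 1.14). The median log2 ratio of the neuronal markers was -0.52, on the other side of equality, and -0.30 against genes of like length and expression.

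**Figure D2:**
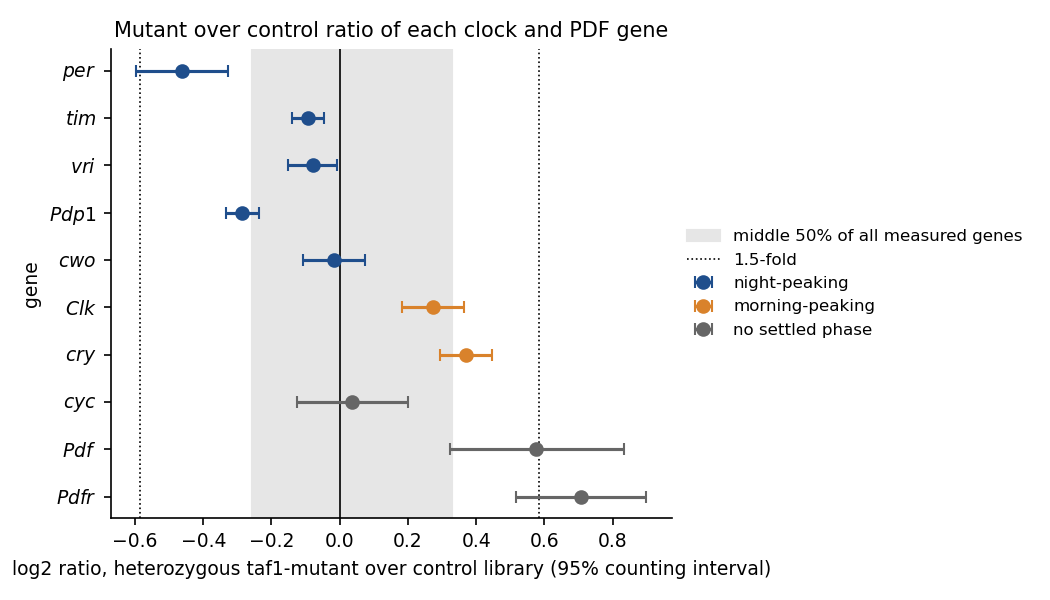
Log2 ratio of the mutant over the control library for each gene, with bars for the exact 95% interval of counting error, dotted lines at 1.5-fold and a grey band for the middle 50% of all measured genes (-0.26 to 0.33). Under TMM scaling the night-peaking genes (*per*, *tim*, *vri*, *Pdp1* and *cwo*) lie from -0.46 to -0.02, the morning-peaking genes *Clk* and *cry* at 0.27 and 0.37, and *Pdfr* at 0.71.

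Levels can be compared between genes only per transcript length, here CPM per kb of the median annotated transcript. In the mutant library *cry* was the highest at 83.9 CPM per kb, followed by *tim* at 70.9 and *Pdp1* at 62.6. In the control library *Pdp1* at 76.3 CPM per kb and *tim* at 75.6 came first, with counting intervals that overlapped, and *cry* followed at 65.0. *vri* (37.9 CPM per kb in the mutant library and 40.1 in control) and *Clk* (28.5 and 23.6) came next in both. Lower down, *cwo* and *cyc* had overlapping intervals in both libraries, at 20.3 and 18.8 CPM per kb in the mutant library and 20.6 and 18.3 in control. *Pdf* stood above *cwo* in the mutant library at 23.7 CPM per kb and below *cyc* in control at 15.9, where the intervals of *Pdf* and *cyc* overlapped. The lowest genes were *per* in the mutant library, at 8.16 CPM per kb below *Pdfr* at 9.49, and *Pdfr* in control, at 5.81 below *per* at 11.2. These orders rest on the annotated lengths, since the transcripts in use were not measured.

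Under TMM scaling the sign of the ratio differed between the night-peaking and the morning-peaking genes of the set. All 5 night-peaking genes of the set lay below a log2 ratio of 0 and both morning-peaking genes above it, although with neuron markers at equality both groups lay above 0. The 3 genes without a settled phase, *cyc* (0.04), *Pdf* (0.57) and *Pdfr* (0.71), also lay above 0 under TMM. So did the output gene *to* (0.50), described below, whose RNA peaks at night. The gap between *cwo* and *Clk* was 0.29 under each library factor. Under TMM the intervals of 4 of the 5 night-peaking genes lay below equality, *cwo* being the exception, and those of both morning-peaking genes lay above it. Over all measured genes, 30.4% of intervals lay below equality and 31.9% above, so an interval off equality was common. To take the library scaling out, reads were compared within each library. The night-peaking genes together had 25154 reads and the morning-peaking genes 7135 in the mutant library, a ratio of 3.53. In the control library they had 17512 and 3527 reads, a ratio of 4.97. The mutant ratio was thus 0.710 times that of control (95% interval 0.679 to 0.743).

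This held for each pair of a night-peaking and a morning-peaking gene. All 10 pairs had a lower ratio in the mutant library, with intervals below equality. They ranged from 0.562 for *per* over *cry* (0.230 in the mutant library and 0.409 in control) to 0.817 for *cwo* over *Clk* (0.892 and 1.09). The pairs share their 2 morning-peaking genes and are not separate results. How often other gene pairs have such intervals was not computed, and 62.4% of all measured genes had an interval off equality. The TMM log2 ratios of *tim*, *vri*, *cwo* and *Clk* lay within the middle 50% of all measured genes (-0.26 to 0.33). For *tim* over *Clk* the ratio was 3.41 in the mutant library and 4.39 in control, or 0.776 times control (0.722 to 0.833). For the opposed arms of the interlocked loop, *vri* over *Clk*, it was 1.38 in the mutant library and 1.76 in control, or 0.783 times control (0.722 to 0.849). Against *cyc*, whose RNA does not cycle, *per* was at 0.708 times control (0.611 to 0.820), *Pdp1* at 0.800 (0.711 to 0.900) and *cry* at 1.26 (1.11 to 1.43). The intervals of *tim*, *vri* and *cwo* over *cyc* included equality, at 0.915, 0.923 and 0.964 times control.

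**Figure D3:**
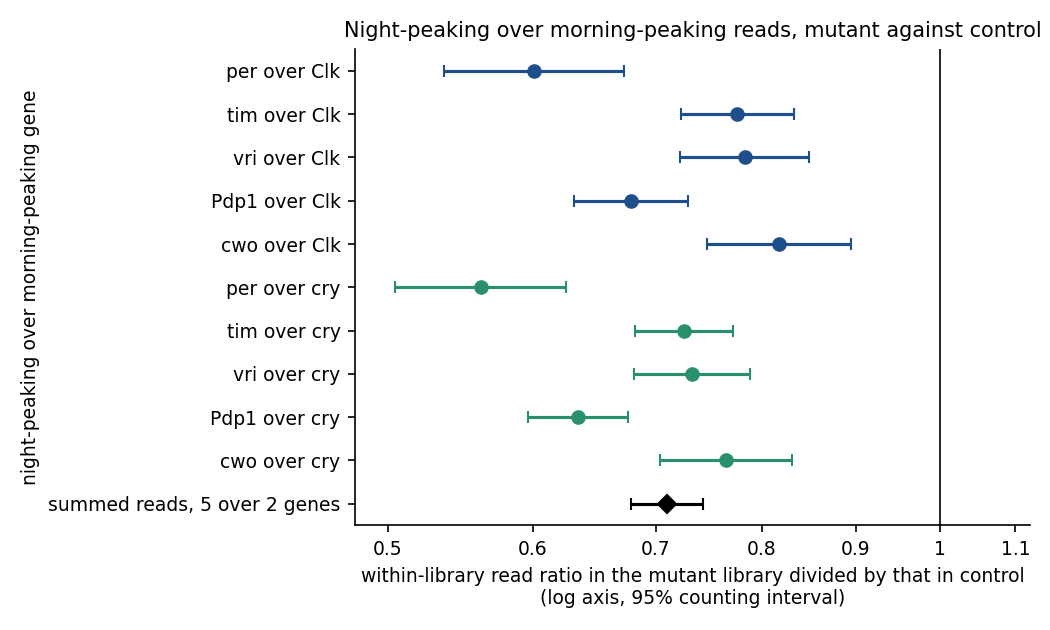
Ratio of night-peaking to morning-peaking reads in the mutant library divided by the same ratio in the control library, on a log axis with 95% intervals of counting error. Each circle is a gene pair, the diamond is the sum of 5 night-peaking over 2 morning-peaking genes at 0.710, and all lie left of 1.

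The mean log2 ratio was -0.19 over the night-peaking genes and 0.32 over the morning-peaking genes, a difference of -0.51. The counting intervals hold no spread between pools, so they do not say how often pools of the same genotype would differ this much. With 1 pool for each genotype and no recorded hour, collection time and genotype cannot be told apart.

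The night-peaking genes also have long transcripts, with median lengths from 3841 to 5075 nt. Each gene was set against the 200 measured genes nearest in transcript length and expression, whose median log2 ratio was -0.27 for *tim* (5075 nt) and 0.16 for *Pdf* (680 nt). In that comparison *tim*, *vri* and *cwo* turned above 0, at 0.18, 0.10 and 0.15, *Pdp1* was at -0.02 and *per* at -0.27. *Clk* was at 0.41 and *cry* at 0.37, so the night-peaking and morning-peaking genes still did not overlap. *vri* (3841 nt) and *Clk* (3697 nt) are nearly alike in length, and their neighbours had median log2 ratios of -0.18 and -0.14. *Pdfr* was at 0.80 and *Pdf* at 0.41 against such genes. The part of fat body and neuronal RNA in the clock gene ratios was not tested.

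The signs of single genes depended on the scaling, as the plot of the ratios under other scalings shows. With neuron markers at equality all 10 genes lay above 0, from *per* at 0.05 to *Pdfr* at 1.22. With the qPCR reference genes at equality *Clk* was at -0.05 and *cry* at 0.04, while *per* at -0.79 and *Pdp1* at -0.61 were called lower. With total reads *per* at -0.73 was called lower, and *Clk* and *cry* were at 0.01 and 0.11. The order of the genes is the same under every scaling that multiplies the whole library by a factor.

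**Figure D4:**
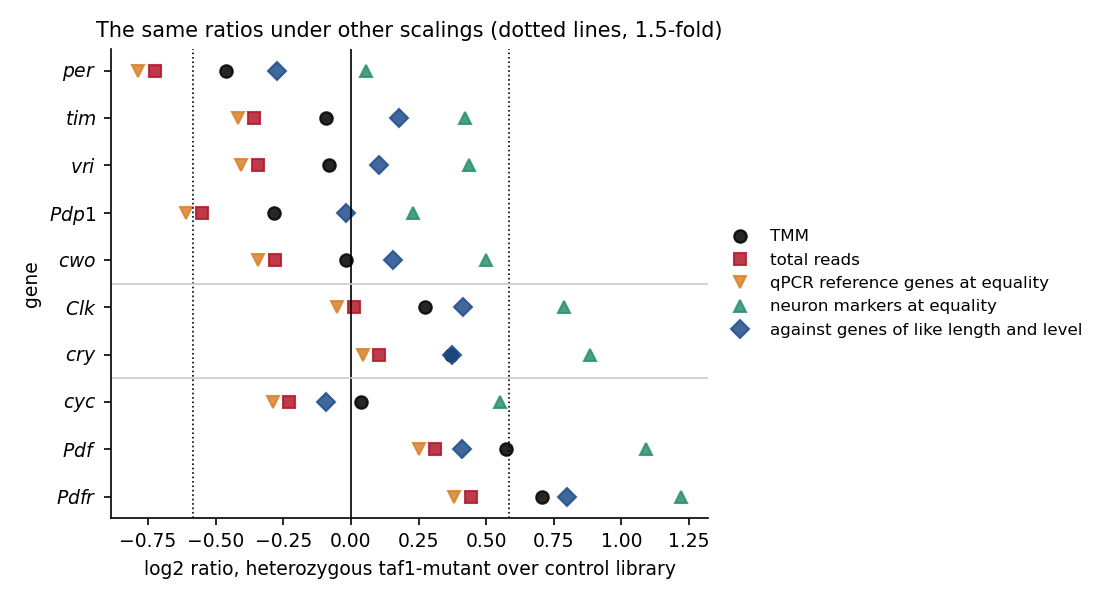
Log2 ratio of the mutant over the control library for each gene under 5 ways of scaling, with dotted lines at 1.5-fold. Other library factors shift all genes alike, while the comparison with genes of like length and level (diamonds) moves *tim*, *vri* and *cwo* above 0 and leaves *Clk* and *cry* at 0.41 and 0.37.

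By chromosome, 6 of the genes (*Clk*, *cyc*, *Pdp1*, *cry*, *cwo* and *Pdf*) lie on chromosome 3, which carries the mutant allele, and they ranged from -0.29 to 0.57. The 5114 measured genes of that chromosome had a median log2 ratio of -0.0042. Neither of the X-linked genes was near 0, with *per* at -0.46 and *Pdfr* at 0.71, and the 1696 measured X-linked genes had a median of 0.03. The chromosome 2 genes *tim* and *vri* were at -0.09 and -0.08.

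Related genes outside the set were read from 8 lists with 89 measured genes. Their median log2 ratio was -0.23, and 1 was called higher and 5 were called lower, but with neuron markers at equality 17 were higher and 1 was lower. Under TMM 12.8% of all measured genes were called higher and 6.16% lower. With neuron markers at equality 4915 of all 11606 measured genes were called higher and 105 lower. The intervals of 13 of the 89 lay above equality and those of 55 below, against 31.9% and 30.4% of all measured genes. Kinases and phosphatases that set the stability of PER and TIM, among them *dco* (the kinase DOUBLETIME) and *sgg* (the kinase SHAGGY), had 0 of 13 called and a median of -0.18. The ubiquitin and turnover genes, such as *slmb* and *jet*, had 0 of 11 called and a median of -0.34. Transcription cofactors of CLK and CYC, such as *nej* and *kis*, had 0 of 9 called (median -0.33), and RNA-binding and translation factors, such as *tyf* and *Atx2*, 0 of 8 (median -0.17). Against genes of like length and expression these 4 medians were -0.09, -0.17, -0.05 and -0.01. In the same comparison the median of the peptides described below moved away from 0, from -0.14 to -0.28. That of their receptors moved from -0.28 to -0.20, of the cAMP pathway from -0.22 to -0.08 and of the output genes from -0.31 to -0.09. With total reads 35 of the related genes were called lower and 0 higher, at a median of -0.26 over all measured genes. Of all 11606 measured genes, 2216 were called lower and 813 higher under that scaling.

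Of 9 measured peptides of other clock neurons or their output cells, 0 were called higher and *CNMa*, which encodes the peptide CNMamide, was called lower. It had 59 reads, or 2.19 CPM, in the mutant library and 83 reads, or 4.95 CPM, in the control library (log2 ratio -1.17, -1.69 to -0.68). *Hug* and *Lk* were listed at 0 in both libraries. Of 11 measured receptors, *AstC-R1*, a receptor of allatostatin C, was called lower at -0.89 (-1.53 to -0.29), with 43 reads in the mutant library and 50 in control. *hec*, a receptor of the same class as PDFR, was called lower at -0.62 (-1.23 to -0.02), with 50 reads in the mutant library and 48 in control, and the receptor gene *CNMaR* was listed at 0. *Pdfr* lay on the other side of equality from *AstC-R1* and *hec*, which were not called with neuron markers at equality. Of the 11 measured receptors, 4 had log2 ratios above 0 and 7 below. *AstC-R2*, also a receptor of allatostatin C, was above 0 at 0.49 (0.014 to 0.996) and was not called. It had 118 reads in the mutant library and 52 in control.

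The cAMP pathway downstream of PDFR had 0 higher and 1 lower of 11 genes, with a median log2 ratio of -0.22. The gene called lower was *dnc*, the cAMP phosphodiesterase, with 545 reads in the mutant library and 536 in control (log2 ratio -0.66, -0.84 to -0.49). Against genes of like length and expression it was at -0.54, short of the fold limit. With neuron markers at equality neither *dnc* nor *Sh* was called. Among 17 genes of clock output and excitability the median was -0.31. *Sh*, the Shaker potassium channel, was called lower at -0.88 (-0.95 to -0.81), with 3310 reads in the mutant library and 3792 in control. *e*, which encodes the enzyme that joins beta-alanine to dopamine in glia and cuticle, was called higher at 0.74 (0.52 to 0.97), with 608 reads in the mutant library and 226 in control. The e1 allele is on the mutant chromosome, and *e* was not called with total reads (0.48) or with the qPCR reference genes at equality (0.42). *to*, a clock output gene whose RNA peaks later in the night than that of *tim*, had 2261 reads, or 83.9 CPM, in the mutant library and 993 reads, or 59.3 CPM, in control. Its log2 ratio of 0.50 (0.39 to 0.61) was under the fold limit, and *to* was chosen after its value was seen.

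**Figure D5:**
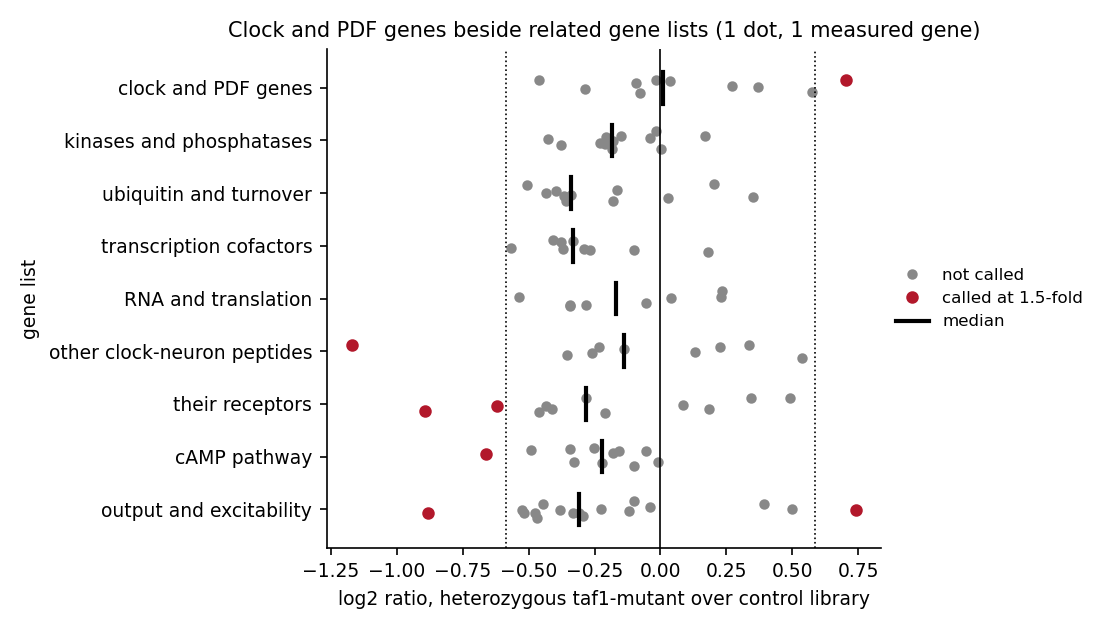
Log2 ratio of the mutant over the control library for each measured gene (dots) of the clock and PDF set and of 8 related lists, with black bars for medians and dotted lines at 1.5-fold. The clock and PDF genes are centred at 0.01 with *Pdfr* called, and the related lists have medians from -0.34 to -0.14.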

How the data were processed

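RNA of whole flies was sequenced on an Illumina HiSeq after a stranded mRNA kit, and a genomics core processed the reads. The submitters' processing notes name BDGP6. Aligner, counting tool and annotation release: not given in the sources used here. In the table the authors deposited, each value is a signal, gene read counts divided by 1 factor for each library (1.26 for the mutant and 0.761 for control). Dividing by the smallest positive value of each column recovered whole reads for 100% of values within 0.001 of a read, and these recovered reads took the place of the raw counts that the tests were planned for.

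Size ratios came from edgeR 4.0.16 (TMM) and DESeq2 1.42.0 (median of ratios) in R 4.3.3. Neither tool's test could be fitted, because 1 library for each genotype leaves 0 residual degrees of freedom. Ratios, with a prior count of 0.5, and intervals (Clopper-Pearson, conditional on the summed reads, and Poisson for CPM) were computed across all 17559 genes in Python 3.11.15 with scipy 1.17.1. The calculation was tested on simulated Poisson reads. These hold counting error only, so the test checks the arithmetic and not how calls from single pools would repeat. Ratios of ratios carry exact conditional 95% intervals. All intervals are for counting error alone, since PCR copies were not separated by molecular identifiers and reads are not independent molecules. Genes that neurons use widely are at exact 0 in both columns, so a gene at 0 is given only as listed at 0. Positions and median transcript lengths are from an Ensembl BDGP6 annotation, in which 17334 genes were found. No gene likeness was computed, since 2 libraries give 1 ratio per gene.

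Named were the 10 genes, *Taf1* and, in each related list, up to 3 called genes in each direction whose larger library held 50 reads or more. Genes named beyond this rule illustrate a list or were chosen after their values were seen. The 10 genes, the phase groups and the lists were chosen with earlier results of these data known. *Urm8*, a tubule marker, was not matched. Peak hours and gene roles are textbook background. The alternatives were other scalings, the comparison with genes of like length and expression, other prior counts, read limits and fold limits, and leaving out each gene of a phase group.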

Additional observations from a re-analysis of the deposited data

How the results depend on the processing

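The count of 1 called gene of the clock and PDF set was unchanged by median-of-ratios, upper-quartile and the authors' own scaling, by TMM without mitochondrially encoded genes, by the comparison with genes of like length and expression, by a prior count of 2 and by limits of 50 reads or 1 read. With total reads 0 were called higher and 1 lower. With the qPCR reference genes at equality 0 were higher and 2 lower (2 in all), and with neuron markers at equality 4 were higher. A 2-fold limit left 0 called, and without a fold limit 4 were higher and 4 lower (8 in all). The median log2 ratio of the set, 0.01, was -0.25 (total reads), -0.32 (qPCR reference genes), 0.52 (neuron markers) and 0.17 against genes of like length and expression. Over the related lists, 1 higher and 5 lower genes became 0 and 35 (total reads), 0 and 42 (qPCR reference genes) and 17 and 1 (neuron markers). A library factor moves every gene by the same amount, which follows from its construction. Over all measured genes 1486 were called higher and 715 lower, a share of higher calls of 67.5%. That share was 26.8% (total reads), 20.8% (qPCR reference genes) and 97.9% (neuron markers). Of all 11606 measured genes, 813 were called higher and 2216 lower with total reads. The same counts were 721 and 2747 with the qPCR reference genes and 4915 and 105 with neuron markers. The counts for the clock and PDF set and the related lists are to be read beside these.

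The night over morning ratio of 0.710 ranged from 0.689 (without *tim*) to 0.741 (without *Pdp1*) when a gene was left out. It was 0.703 as a mean of log2 ratios and 0.776 when these were set against genes of like length and expression, an alternative added after seeing the data. With *cry* in place of *Clk*, *tim* was at 0.726 and *vri* at 0.733. Leaving out a library was not possible with 1 for each genotype, and no paired analysis was possible because each group holds 1 library. Depth limits both PDF genes, since the intervals of *Pdf* (1.25 to 1.78) and of the called *Pdfr* (1.43 to 1.86) span the 1.5-fold limit.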
